A study of Arabidopsis thaliana with 14 samples.

Results

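The SnRK2 protein kinases are the plant family of SNF1-related kinases known for its activation by water deficit, and the Arabidopsis genome encodes SnRK2.1 to SnRK2.10. The genes were chosen by locus: every probe whose transcript belongs to 1 of the 10 SnRK2 loci was taken, which gave 12 probes and 10 genes of the 25433 genes with a probe on the array. All 10 passed the filter on dim probes and so were among the 18309 genes tested. SnRK2.1 and SnRK2.8 had 2 probes each and the other genes 1 each.

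Under water deficit the hormone abscisic acid (ABA) binds soluble receptors, which then hold back clade A protein phosphatases that otherwise keep SnRK2 kinases inactive. The freed kinases, once phosphorylated by Raf-like kinases, phosphorylate bZIP transcription factors, ion channels and oxidases. The family falls into subclass III, strongly activated by ABA, subclass II, weakly activated by it, and subclass I, most of which osmotic stress activates without ABA. This activity is set on the protein, and the values here are transcript levels in whole seedlings.

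The study measured total RNA of whole Arabidopsis thaliana seedlings, 7 days old at transfer, on 14 single-colour Agilent arrays. Wild type was Col-0, and the transgenic seedlings, also Col-0, expressed At14a-Like1 (AFL1, AT3G28270) fused to YFP from the constitutive 35S promoter and are called 35S:YFP-AFL1 here. The labels do not say how many transgenic lines were used. Both genotypes were grown on agar under continuous light and moved to new plates, either unchanged or holding polyethylene glycol that set the water potential to -1.2 MPa. Collection followed 10 h after the move. Each treatment had 4 wild-type arrays and 3 from 35S:YFP-AFL1. Nothing says that replicates came from separate cultures, so p-values cover only sample-to-sample spread, possibly technical.

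Levels are given as log2 of the signal relative to the 75th percentile of the same array, so that 0 is the brightness of that percentile and 1 unit is a doubling. Probes differ in how well they bind, so these levels compare samples for 1 gene and not genes with each other. A gene was called changed at a limma adjusted p under 0.05. The arrays had 75th percentiles of 796.2 to 1591 signal units and 59.62% to 67.12% of probes were well above background. The AFL1 probe, a check of the labels, read -0.55 to 0.66 in wild-type control arrays and 2.08 to 2.51 in 35S:YFP-AFL1 control arrays. At low water potential the AFL1 ranges, 3.33 to 4.08 in wild type and 3.82 to 4.08 in 35S:YFP-AFL1, overlapped. Shoot and root genes were both read: the summed shoot markers reached 380 to 409 times the 75th percentile in wild-type control arrays and the summed root markers 2.55 to 3.88 times. The root markers PIN2, WOX5, PLT1 and PLT2 were not among the genes tested.

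Wild-type replicate 1 was hybridised on the slides of the 35S:YFP-AFL1 arrays, slide 4 in control and slide 5 at low water potential, while the other wild-type arrays were on slides 1 to 3. For 7 of the 10 SnRK2 genes in control and 6 of 10 at low water potential, wild-type replicate 1 lay closer to the mean of the 35S:YFP-AFL1 arrays than to the mean of the other wild-type arrays, beside 60.4% and 66.8% of all genes tested, and some of these, such as SnRK2.7 and SnRK2.10 in control, were near ties. AFL1 itself read 0.66 in wild-type control replicate 1, below every 35S:YFP-AFL1 control array. Results that rest on this replicate are given with and without it.

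**Figure D1:**
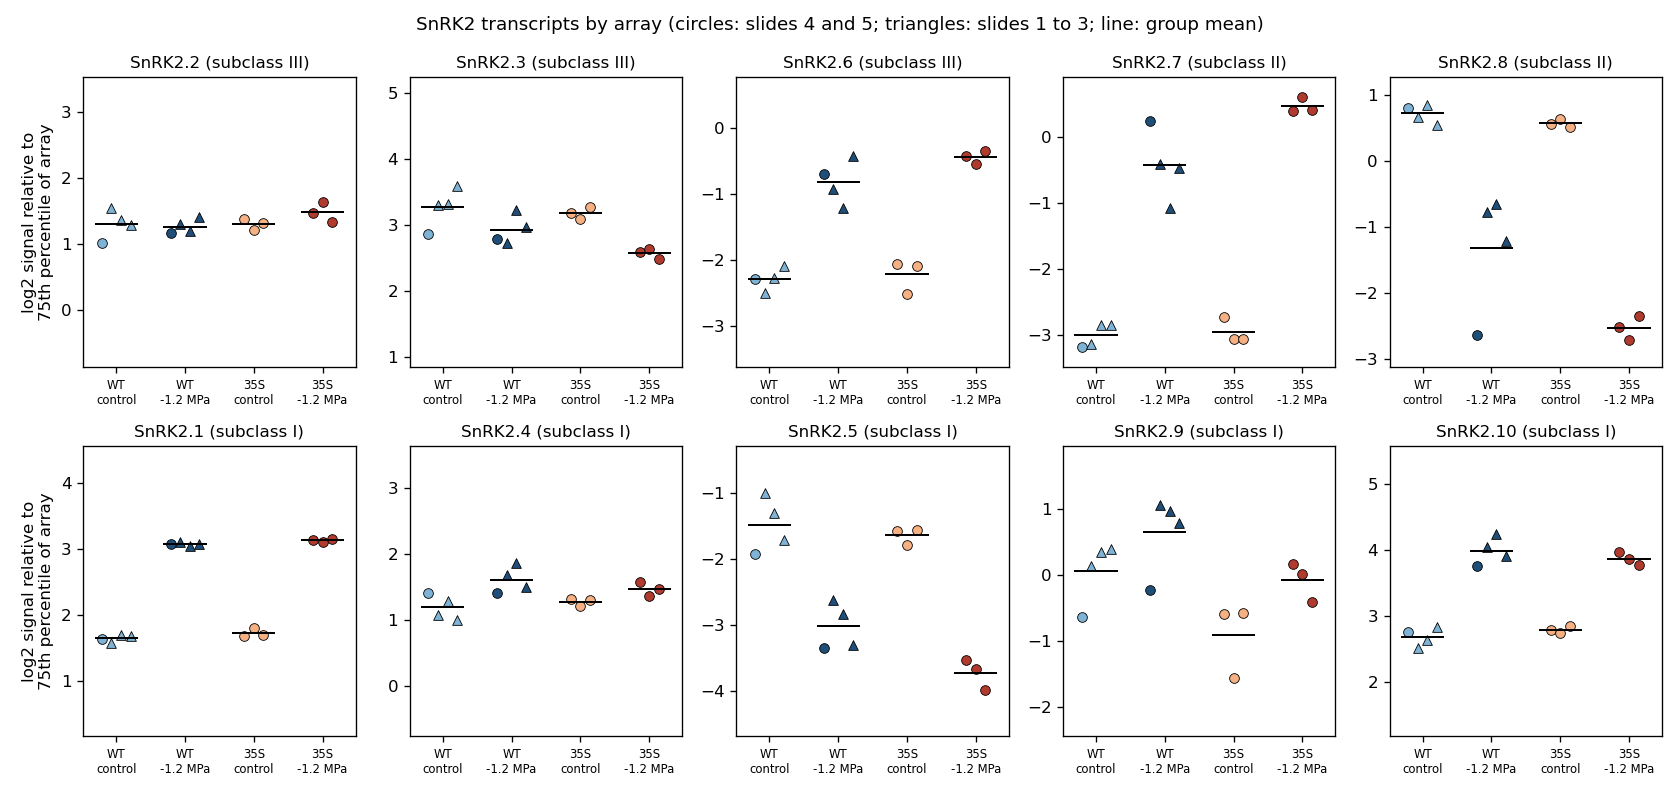
Log2 signal of each SnRK2 gene relative to the 75th percentile of the array, 1 point per array, in the 4 groups (WT, wild type; 35S, 35S:YFP-AFL1; lines, group means; every panel spans the same number of log2 units). Circles mark slides 4 and 5 and triangles slides 1 to 3. SnRK2.1, SnRK2.6, SnRK2.7 and SnRK2.10 rise and SnRK2.5 and SnRK2.8 fall at low water potential in both genotypes, and the wild-type circle of SnRK2.8 at -2.63 sits with the 35S:YFP-AFL1 arrays.

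The first comparison asked how the SnRK2 transcripts answered low water potential in each genotype. In wild type 7 of the 10 genes were called, against 64.1% of all genes tested, so that the share of the family that changed was near that of the transcriptome. SnRK2.1, SnRK2.4, SnRK2.6, SnRK2.7 and SnRK2.10 rose, 5 against 30.7% of all genes, and SnRK2.5 and SnRK2.8 fell, 2 against 33.4%. In 35S:YFP-AFL1 7 of 10 were called as well, against 63.3% of all genes, with 4 higher (30.1% of all genes) and 3 lower (33.3%). SnRK2.1, SnRK2.6, SnRK2.7 and SnRK2.10 rose and SnRK2.5 and SnRK2.8 fell in both genotypes.

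The changes that were called were large for most of these genes. In each genotype 6 of the 10 were called and at least 2-fold changed, against 33.6% (wild type) and 37.4% (35S:YFP-AFL1) of all genes. The control and stress arrays did not overlap for 6 genes in wild type, where 53.3% of all genes did not, and for 9 genes in 35S:YFP-AFL1, where 76.5% did not. The family had a median log2 change of 0.50 (wild type) and 0.51 (35S:YFP-AFL1), beside -0.03 and -0.04 over all genes tested. Each genotype's response rests on its own control arrays.

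**Figure D2:**
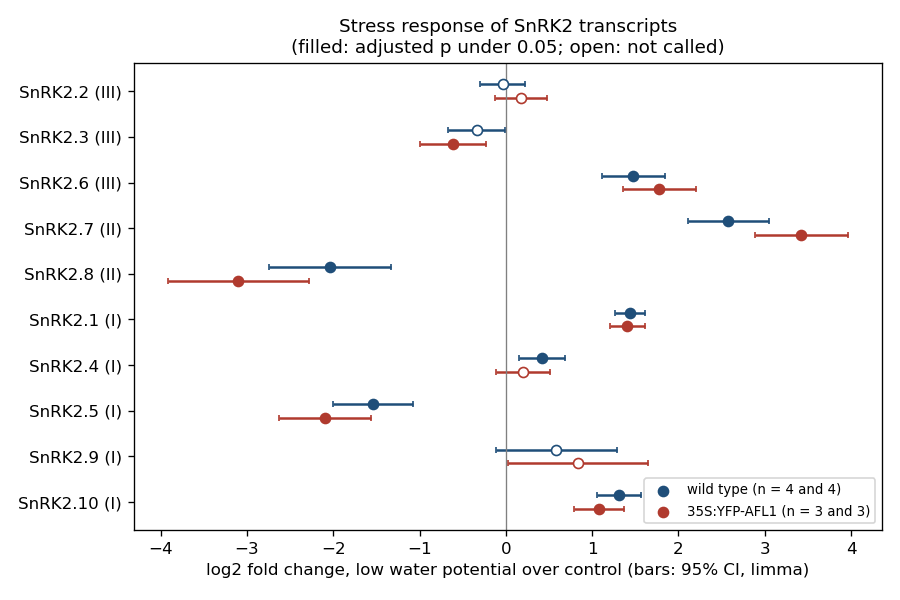
Log2 fold change at low water potential over control for each SnRK2 gene (subclass in brackets), with 95% confidence intervals from limma, in wild type (blue, 4 against 4 arrays) and 35S:YFP-AFL1 (red, 3 against 3). Filled points were called at an adjusted p under 0.05. The responses run from -3.10 for SnRK2.8 to 3.43 for SnRK2.7, both in 35S:YFP-AFL1.

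Subclass III holds SnRK2.2, SnRK2.3 and SnRK2.6, the kinases that carry most ABA signalling. SnRK2.6 (OST1, AT4G33950) is the guard-cell kinase whose loss leaves stomata open under drought. It read -2.30, -2.50, -2.28 and -2.09 in the wild-type control arrays and -0.70, -0.93, -1.22 and -0.42 at low water potential. In 35S:YFP-AFL1 the control arrays gave -2.06, -2.52 and -2.09 and the stressed arrays -0.43, -0.55 and -0.35. Every stressed array lay above every control array, whichever the genotype. SnRK2.6 rose by 1.48 ± 0.17 (log2, SE) in wild type, which is 2.78-fold (adjusted p = 4.73e-06). The rise in 35S:YFP-AFL1 was 1.78 ± 0.19 (adjusted p = 3.29e-06). Blocking on the slide, which for wild type leaves the difference of 1 stressed and 1 control array on slide 2, gave 1.17 (adjusted p = 0.0266). Blocked values set very few arrays against each other, and their p-values borrow the spread from replicate arrays of other groups and slides, on the assumption that a lone array varies as those do. For 35S:YFP-AFL1, whose control and stressed arrays share no slide, the blocked value of 1.35 missed the threshold (adjusted p = 0.0903).

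Most of the guard-cell markers tested fell while SnRK2.6 rose. Of 8 guard-cell markers 7 were tested, and in wild type 1 rose and 5 fell, with a median log2 change of -0.98, where 30.7% of all genes tested rose and 33.4% fell. In 35S:YFP-AFL1 1 rose and 4 fell (median -1.17), where 30.1% and 33.3% of all genes did. Their summed level was 1.61 to 2.08 times the 75th percentile in wild-type control and 0.883 to 1.30 at low water potential, and 1.99 to 2.26 against 1.11 to 1.38 in 35S:YFP-AFL1. GORK, an outward potassium channel, rose by 1.91 ± 0.16 in wild type (adjusted p = 3e-07), while KAT2, an inward potassium channel, fell by 2.63 ± 0.21 (adjusted p = 1.25e-07) and MYB60, a guard-cell transcription factor, fell by 2.41 ± 0.16 (adjusted p = 2.39e-08). In wild type GORK was well above background on 1 of 4 control arrays, and KAT2 and MYB60 on 3 of 4 stressed ones. HT1, a kinase of the carbon dioxide response, was not well above background on any stressed array. Its measured level was 4.08-fold lower there in wild type (adjusted p = 0.000134), a value that rests on readings near background. In whole seedlings fewer cells of a type and less RNA per cell cannot be told apart, and the part of guard-cell number in the SnRK2.6 values was not tested.

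SnRK2.2 (AT3G50500) and SnRK2.3 (AT5G66880), close relatives that act together in ABA responses of seeds and roots, did not rise. SnRK2.2 lay between 1.02 and 1.55 in wild-type control and between 1.17 and 1.41 at low water potential, and the groups overlapped. Its log2 change was -0.04 in wild type, with a 95% interval of -0.30 to 0.23 (adjusted p = 0.799), and 0.18 in 35S:YFP-AFL1 (adjusted p = 0.294).

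SnRK2.3 read 2.86, 3.30, 3.32 and 3.59 in wild-type control and 2.79, 2.73, 3.23 and 2.97 at low water potential. In 35S:YFP-AFL1 it read 3.18, 3.09 and 3.28 in control and 2.59, 2.64 and 2.49 under stress. The wild-type groups overlapped, through the low reading of control replicate 1, and the transgenic groups did not. SnRK2.3 fell in 35S:YFP-AFL1 by 0.61 ± 0.18 (adjusted p = 0.00885), a call that was lost when arrays were centred on their median (-0.40, adjusted p = 0.073) and kept with the slide blocked (-1.40, adjusted p = 0.00527). In wild type the change of -0.34 missed the threshold (adjusted p = 0.0695) and depended on which arrays were compared. Within scan day 1, where replicate 2 was the only stressed array, it was -0.68. Within scan day 2, where replicate 1 was the only control array, it was 0.14. Blocked by slide, which leaves 1 stressed and 1 control array on slide 2, it was -0.87. Without wild-type replicate 1 in both treatments it was -0.43 (adjusted p = 0.018).

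Subclass II consists of SnRK2.7 (AT4G40010) and SnRK2.8 (AT1G78290), and these close relatives gave the extreme responses of the family, in opposite directions. SnRK2.7 read -3.19, -3.15, -2.85 and -2.86 in wild-type control and 0.23, -0.42, -1.08 and -0.47 at low water potential. In 35S:YFP-AFL1 it read -2.74, -3.07 and -3.07 in control and 0.39, 0.60 and 0.41 under stress. No stressed array came near a control array. SnRK2.7 rose by 2.58 ± 0.22 in wild type, 5.97-fold (adjusted p = 2.44e-07). The rise was 3.43 ± 0.25 in 35S:YFP-AFL1 (adjusted p = 6.99e-08). Blocked by slide, both changes were 2.44 (adjusted p = 0.000236 for wild type, 0.00402 for the transgenic seedlings).

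SnRK2.8, a kinase known for promoting growth, read 0.81, 0.67, 0.86 and 0.55 in wild-type control and -2.63, -0.77, -0.65 and -1.21 at low water potential. In 35S:YFP-AFL1 it read 0.56, 0.64 and 0.52 in control and -2.52, -2.71 and -2.35 under stress. All stressed arrays were below all control arrays, and wild-type stress replicate 1 lay more than 1 log2 unit below the other wild-type stressed arrays and among the transgenic ones. SnRK2.8 fell by 2.04 ± 0.33 in wild type (adjusted p = 0.000109), to a level 4.10-fold below control. In 35S:YFP-AFL1 it fell by 3.10 ± 0.38 (adjusted p = 9.23e-06). Without wild-type replicate 1 in both treatments the wild-type change was -1.57 (adjusted p = 4.16e-06), and within slide 2 it was -1.33 (adjusted p = 0.00392). The call in 35S:YFP-AFL1 was lost with the slide as a block (-0.99, adjusted p = 0.1). A second probe of SnRK2.8 gave a change of -2.59 for wild type and -3.11 for 35S:YFP-AFL1, though under stress it was well above background on 3 of 4 wild-type and 1 of 3 transgenic arrays.

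Subclass I holds SnRK2.1, SnRK2.4, SnRK2.5, SnRK2.9 and SnRK2.10. Apart from SnRK2.9, these kinases are known to be activated by osmotic stress without ABA. SnRK2.1 (AT5G08590) varied little within groups. It read 1.64, 1.57, 1.70 and 1.67 in wild-type control and 3.08, 3.11, 3.05 and 3.08 at low water potential. The transgenic arrays gave 1.67, 1.81 and 1.69 in control and 3.14, 3.10 and 3.15 under stress. Control and stressed arrays were far apart, and within each treatment the genotypes overlapped. SnRK2.1 rose by 1.44 ± 0.08 in wild type, 2.7-fold (adjusted p = 5.68e-09), and the transgenic rise was 1.41 ± 0.09 (adjusted p = 3.07e-08). Its second probe gave 1.54 and 1.52.

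SnRK2.10 (AT1G60940) and its close relative SnRK2.4 (AT1G10940), both tied to root growth under salt stress, differed in how far they moved. SnRK2.10 read 2.76, 2.51, 2.63 and 2.83 in wild-type control and 3.76, 4.05, 4.24 and 3.91 under stress, with 2.78, 2.75 and 2.85 against 3.98, 3.86 and 3.78 in 35S:YFP-AFL1. The rise was 1.31 ± 0.12 (adjusted p = 4.91e-07) in wild type, and the transgenic seedlings showed 1.08 ± 0.14 (adjusted p = 1.27e-05), with no overlap in either.

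SnRK2.4 lay between 1.0 and 1.41 in wild-type control and between 1.41 and 1.86 at low water potential. Replicate 1 read 1.41 in both treatments, so that the groups overlapped there and nowhere else. It rose in wild type by 0.42 ± 0.12 (adjusted p = 0.00971), and its change of 0.20 in 35S:YFP-AFL1 was not called (adjusted p = 0.248). The wild-type call was lost within scan day 1 (0.56), with only 1 stressed array, and within scan day 2 (0.18), with only 1 control array. The call was kept with the slide blocked (0.67) and without wild-type replicate 1 in both treatments (0.56, adjusted p = 0.00168). Median centring, which moved the median change of all genes to 0.13 (wild type) and 0.17 (35S:YFP-AFL1), raised the transgenic changes of SnRK2.4 to 0.40 (adjusted p = 0.0245) and of SnRK2.2 to 0.38 (adjusted p = 0.0477).

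SnRK2.5 (AT5G63650) was the subclass I gene that fell. It read -1.92, -0.99, -1.31 and -1.71 in wild-type control and -3.34, -2.62, -2.83 and -3.30 under stress, and -1.57, -1.78 and -1.55 against -3.53, -3.67 and -3.98 in 35S:YFP-AFL1. Control and stressed arrays were apart in both genotypes, but of the 3 transgenic stressed arrays only 1 was well above background, so that the lowest readings are close to what the array can measure. SnRK2.5 fell by 1.54 ± 0.21 in wild type (adjusted p = 2.91e-05), and in 35S:YFP-AFL1 it fell by 2.09 ± 0.25 (adjusted p = 6.71e-06). Within slide 2 the wild-type change was -0.91 (adjusted p = 0.0313).

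SnRK2.9 (AT2G23030), a little-studied member, was spread out within groups. It read -0.63, 0.14, 0.35 and 0.40 in wild-type control and -0.23, 1.07, 0.98 and 0.79 under stress, where replicate 1 was the lowest both times. In 35S:YFP-AFL1 it read -0.60, -1.56 and -0.57 in control and 0.16, 0.02 and -0.41 under stress. Its change of 0.58 ± 0.32 in wild type was not called (adjusted p = 0.132), nor was the 0.83 ± 0.38 in 35S:YFP-AFL1 (adjusted p = 0.0683). Without wild-type replicate 1 in both treatments both were called, with 0.65 (adjusted p = 0.0371) and 0.83 (adjusted p = 0.0107). With all arrays the 35S:YFP-AFL1 response was also called under normexp (0.82, adjusted p = 0.0265) and median centring (1.04, adjusted p = 0.0309). Within scan day 1, where replicate 2 was the only stressed wild-type array, the wild-type change was 0.77. In all, 4 of 29 alternatives called the wild-type response of SnRK2.9 and 7 of 28 called that of 35S:YFP-AFL1. Leaving out wild-type arrays kept the transgenic change at 0.83. Its call there came with another pooled spread and another adjustment over all genes.

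The order of the 4 group means was set by treatment for the genes that changed. For SnRK2.1, SnRK2.5, SnRK2.6, SnRK2.7, SnRK2.8 and SnRK2.10 the only neighbouring groups that differed were the control and the stressed group on either side of the step, and the 2 groups of the same treatment were not told apart. For SnRK2.2, SnRK2.3, SnRK2.4 and SnRK2.9 no neighbouring groups in the order differed at the adjusted threshold.

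For 4 pairs of close relatives, chosen once their values were known, the log2 ratio of the signals was set side by side in stressed and control arrays, as a description with no test. How well each probe binds cancels when a ratio is compared between treatments. Whether the probe of 1 relative also binds the other was not tested.

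The ratio of SnRK2.8 to SnRK2.7 shifted by -4.61 log2 units in wild type and by -6.53 with the transgene. The ratio of SnRK2.5 to SnRK2.1 shifted by -2.97 and by -3.50, and that of SnRK2.10 to SnRK2.4 by 0.89 and 0.88. In these 3 pairs no stressed array overlapped a control array of its genotype. SnRK2.5 was well above background on only 1 of the 3 transgenic stressed arrays. The ratio of SnRK2.3 to SnRK2.2 shifted by -0.30 in wild type, where the control range of 1.75 to 2.3 overlapped the stressed range of 1.42 to 2.03, and by -0.78 with the transgene, where the ranges were apart.

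Among the wild-type arrays, scan day 1 held only 1 stressed array, scan day 2 only 1 control array and slide 2 only 1 of each. The wild-type shift of SnRK2.8 against SnRK2.7 was -4.0 within scan day 1, -5.06 within scan day 2 and -3.77 within slide 2. That of SnRK2.5 against SnRK2.1 was -2.75, -2.66 and -2.35. SnRK2.10 against SnRK2.4 gave 0.84, 1.03 and 0.55, and SnRK2.3 against SnRK2.2 gave -0.58, -0.10 and -0.88.

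**Figure D3:**
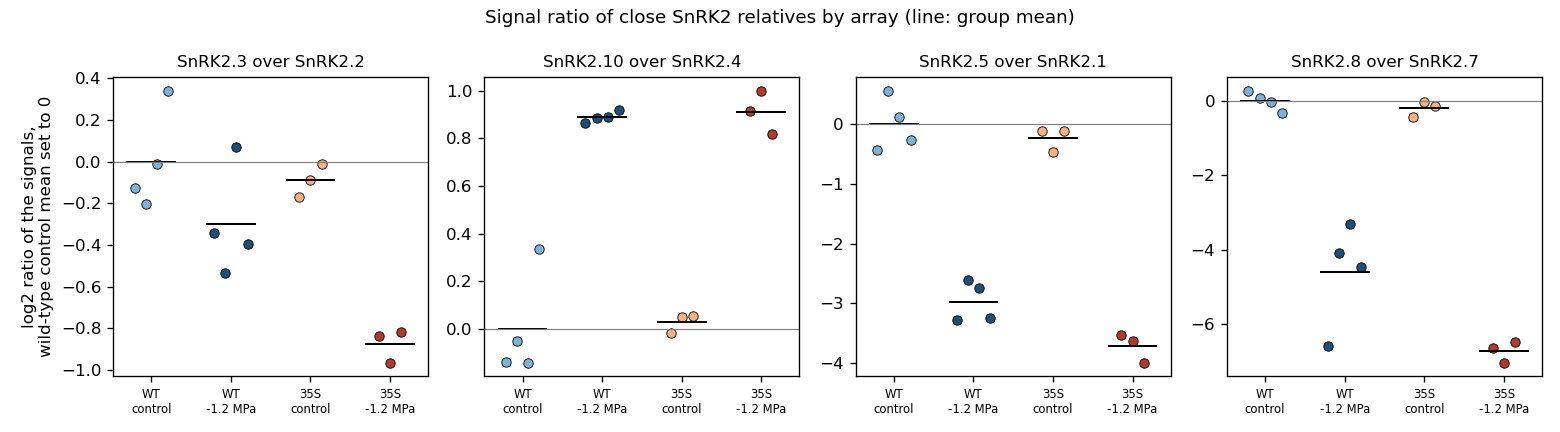
Log2 ratio of the signals of 4 pairs of close SnRK2 relatives, 1 point per array, with the wild-type control mean set to 0 and group means as lines (the vertical scale differs between panels). SnRK2.8 over SnRK2.7 shifts by -4.61 and -6.53, and SnRK2.10 over SnRK2.4 gains 0.89 and 0.88.

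The second comparison asked whether the transgene went with other SnRK2 levels. On control plates none of the 10 genes was called by limma between 35S:YFP-AFL1 and wild type, where 0.0218% of all genes were. At an unadjusted p under 0.05 there was 1, SnRK2.9, against 11.3% of all genes, and no gene had groups that did not overlap, against 13.6%. SnRK2.9 was 0.97 lower in 35S:YFP-AFL1 (95% interval -1.73 to -0.21, adjusted p = 0.305). Within slide 4, against wild-type replicate 1 alone, that difference was -0.28 (adjusted p = 0.933), and without wild-type replicate 1 in both treatments it was -1.20 and called (adjusted p = 0.0156), the only member called there, where 7.64% of all genes were. Without that replicate the wild-type control arrays are all on slides 1 and 2, scanned on day 1. The transgenic control arrays are all on slide 4, scanned on day 2, so slide, scan day and genotype cannot be told apart there. For the other 9 genes the control difference with all arrays ran from -0.15 to 0.11. The second probe of SnRK2.8 gave -0.46 (adjusted p = 0.745 over all kept probes).

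At low water potential none of the 10 was called either, against 2.17% of all genes. SnRK2.5, SnRK2.7 and SnRK2.8 had an unadjusted p under 0.05, 3 against 20.2% of all genes. The groups did not overlap for SnRK2.3, SnRK2.5 and SnRK2.7, 3 against 14.6% of all genes. SnRK2.7 was 0.90 higher in 35S:YFP-AFL1 (95% interval 0.40 to 1.40, adjusted p = 0.065) and SnRK2.8 was 1.21 lower, as a difference of -1.21 (95% interval -1.98 to -0.45, adjusted p = 0.091). The second probe of SnRK2.8 gave -0.97 (adjusted p = 0.221 over all kept probes). SnRK2.5 differed by -0.71 (adjusted p = 0.124) and SnRK2.9 by -0.73 (adjusted p = 0.268). SnRK2.5 and the second probe of SnRK2.8 were each well above background on only 1 of the 3 transgenic stressed arrays.

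These differences depended on whether wild-type stress replicate 1 was in the comparison. Within slide 5, where 3 transgenic arrays meet that array alone and the spread again comes from other groups and slides, SnRK2.7 differed by 0.23 (adjusted p = 0.732), SnRK2.8 by 0.11 (adjusted p = 0.888), SnRK2.9 by 0.16 (adjusted p = 0.902) and SnRK2.5 by -0.39 (adjusted p = 0.507), so that SnRK2.8 and SnRK2.9 changed sign. Without it, 4 members were called, against 19.2% of all genes. SnRK2.7 was then 1.12 higher (adjusted p = 0.00185) and SnRK2.8 differed by -1.65 (adjusted p = 8.07e-05). SnRK2.5 differed by -0.81 (adjusted p = 0.0335) and SnRK2.9 by -1.02 (adjusted p = 0.0366). The SnRK2.5 value rests on transgenic readings of which only 1 of 3 was well above background. Without wild-type stress replicate 1 every wild-type stressed array is on another slide than the transgenic ones, and slide and genotype cannot be told apart.

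**Figure D4:**
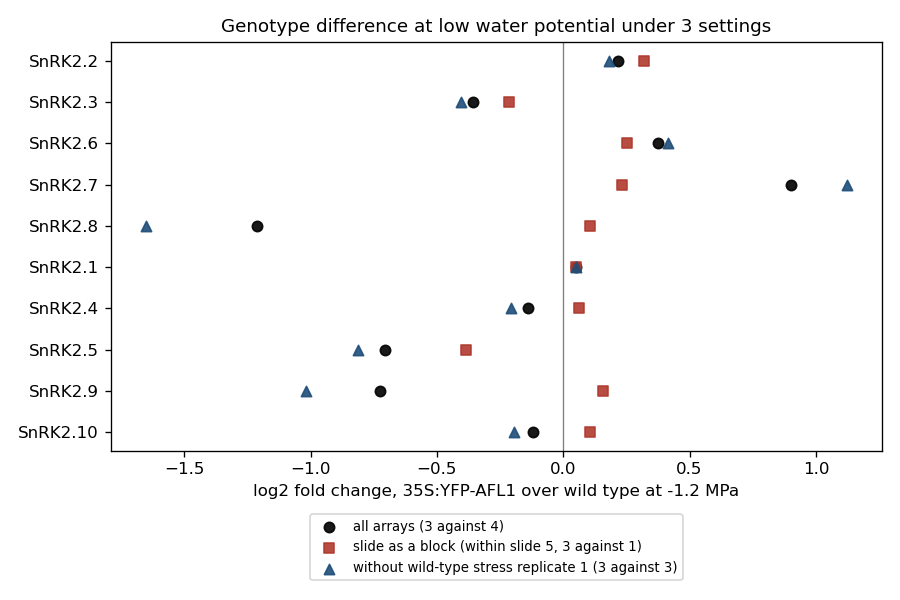
Log2 difference between 35S:YFP-AFL1 and wild type at -1.2 MPa for each SnRK2 gene, with all arrays (black), with the slide as a block (red, 3 arrays against wild-type replicate 1 on slide 5) and without that replicate (blue). SnRK2.8 lies at -1.21, 0.11 and -1.65 under these settings and SnRK2.7 at 0.90, 0.23 and 1.12.

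The third comparison, of the difference between the stress responses, called none of the 10 genes and 0% of all genes tested. With an unadjusted p under 0.05 there was 1 member, SnRK2.7, against 9.73% of all genes. Its response was 0.85 larger in 35S:YFP-AFL1 (adjusted p = 0.434), and that of SnRK2.8 differed by -1.07 (adjusted p = 0.52). Blocked by slide these were 0.0006 and 0.34. The second probe of SnRK2.8 gave a difference of -0.52 with all arrays (adjusted p = 0.802 over all kept probes). That probe was well above background on 1 of 3 transgenic stressed arrays. Without wild-type stress replicate 1, SnRK2.7 (1.07, adjusted p = 0.0331) and SnRK2.8 (-1.50, adjusted p = 0.00267) were called, 2 members against 4.12% of all genes.

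Upstream of the kinases, the receptors called fell and the phosphatases called rose. The counts of each list stand against 30.7% of all genes higher and 33.4% lower in wild type, and 30.1% and 33.3% in 35S:YFP-AFL1. Of 14 PYR/PYL ABA receptors 9 were tested, and 8 fell and 0 rose in each genotype, with a median log2 change of -1.38 (wild type) and -1.89 (35S:YFP-AFL1). In wild type PYL4 fell by 4.39 ± 0.27 (adjusted p = 1.3e-08), PYL5 fell by 3.52 ± 0.19 (adjusted p = 3.91e-09) and PYL8 fell by 2.2 ± 0.27 (adjusted p = 8.52e-06). PYL4 was well above background on 1 of 4 stressed wild-type arrays. PYL6 was not well above background on any stressed array. Its fall in wild type was called on the measured readings (adjusted p = 4.18e-09). With readings below the lowest well-above-background signal of their array raised to it, PYL6 was 15.1-fold lower under stress in wild type. The raised readings averaged -6.28, while SnRK2.5 at -3.67 on a transgenic stressed array was not well above background. The PYL6 fold therefore rests on readings near background and is not a lower limit.

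All 9 clade A phosphatases, which bind SnRK2 kinases and remove their activating phosphate, rose in both genotypes, with a median of 4.43 (wild type) and 4.78 (35S:YFP-AFL1). ABI2 rose by 4.43 ± 0.15 (adjusted p = 6.4e-11) and HAI1 by 7.64 ± 0.18 (adjusted p = 3.12e-12) in wild type. HAI2, HAI3 and AHG1 were not well above background on any wild-type control array. Their rises were called on the measured readings (adjusted p = 9.4e-12, 1.93e-12 and 7.91e-11). With low readings raised as for PYL6, they were 384-fold, 191-fold and 37.1-fold higher under stress. These folds too rest on readings near background and are not lower limits. Raising low readings in this way left the medians of the receptor and phosphatase lists as given. The raised readings lay close to the measured ones, so this does not test a higher floor. ABI2 was named after its value was seen.

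Among the kinases that activate SnRK2 proteins, some rose and some fell. Of 12 Raf-like kinases of groups B2 and B3, which activate subclass III, 10 were tested, and 3 rose and 2 fell in wild type (median 0.00) while 1 rose and 3 fell in 35S:YFP-AFL1 (median -0.11). In wild type RAF12 rose by 2.91 ± 0.14 (adjusted p = 1.38e-09) and SIS8 fell by 0.92 ± 0.23 (adjusted p = 0.00307). Of 7 kinases of group B4, which activate subclass I, 5 were tested, with 2 higher and 1 lower in wild type and 3 higher and 1 lower in 35S:YFP-AFL1 (medians 0.32 and 0.30). RAF35 rose by 2.82 ± 0.17 (adjusted p = 9.74e-09) and RAF40 fell by 1.63 ± 0.17 (adjusted p = 1.67e-06) in wild type. RAF40 was well above background on 3 of 4 stressed wild-type arrays. SCS, a calcium sensor that inhibits SnRK2 kinases, rose in wild type by 0.52 ± 0.13 (adjusted p = 0.0039), and its 0.13 in 35S:YFP-AFL1 was not called (adjusted p = 0.481).

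Among the targets, 7 of 8 bZIP factors were tested and 4 rose and 0 fell in wild type (median 2.1), with 5 and 0 in 35S:YFP-AFL1 (median 1.82). The wild-type changes were 2.85 ± 0.14 for ABF2, 2.73 ± 0.43 for ABI5, 2.59 ± 0.19 for ABF3 and 2.1 ± 0.16 for ABF4 (adjusted p = 1.6e-09, 9.31e-05, 5.42e-08 and 7.39e-08). Of 6 other substrates 5 were tested, and 2 rose and 1 fell in each genotype (medians 0.07 and 0.19). AKS1, a transcription factor of guard-cell channels, rose by 3.83 ± 0.14 (adjusted p = 1.16e-10) and the NADPH oxidase RBOHF by 1.99 ± 0.25 (adjusted p = 1.22e-05), while its relative RBOHD fell by 1.74 ± 0.52 (adjusted p = 0.0106). RBOHF was well above background on 2 of 4 wild-type control arrays. All 9 ABA-responsive output genes rose in both genotypes (medians 4.78 and 5.19), among them RD20 by 7.82 ± 0.31 and RD29A by 6.79 ± 0.20 in wild type (adjusted p = 1.85e-10 and 1.32e-11). RD20 was well above background on 3 of 4 wild-type control arrays.

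**Figure D5:**
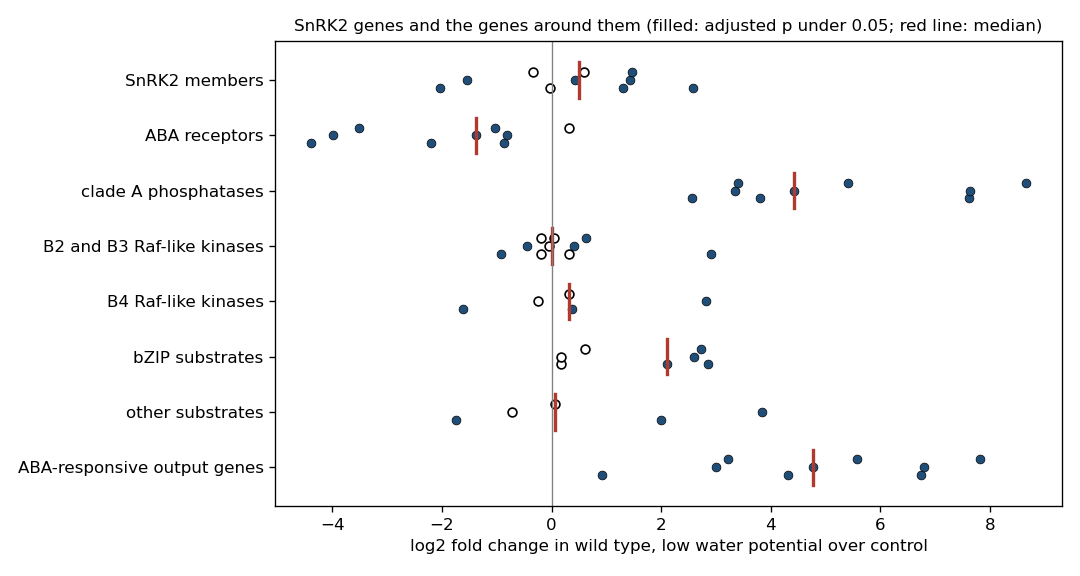
Log2 fold change in wild type at low water potential over control (4 against 4 arrays), 1 point per tested gene of each list, filled where called at an adjusted p under 0.05, with the list median in red (genes below background in 1 treatment are drawn at the fitted value). The SnRK2 genes lie on both sides of 0 with a median of 0.50, the receptors have a median of -1.38 and the phosphatases of 4.43.

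The genes with a symbol whose levels ran closest to those of SnRK2.6 over the 14 arrays were ASP2, an aspartate aminotransferase (root mean square difference 0.162 log2 units after centring), KEA5, a potassium efflux antiporter (0.202), and RCP1 (0.203). For SnRK2.7, the member with the largest wild-type response, they were PDCB4, a plasmodesmata callose-binding protein (0.211), ELI3-2 (0.234) and LTP2, a lipid transfer protein (0.251). These genes changed at low water potential by 1.41 to 2.6 log2 units in wild type. The 14 arrays share their treatments, so the measure holds the treatment response as well as the spread within groups.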

How the data were processed

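Per the file headers, the authors' deposited intensity values are processed signals, background-subtracted and linear, written by Agilent Feature Extraction (version 10.7.1.1). The authors' value table of the series held these intensities again, within a relative difference of 6e-04. Probes were named through their transcript accession and the TAIR10.1 gene table (34358 of 43603 probes, 78.8%). The array carries an older build label, so no coordinates are given.

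From the deposited signals, log2 values relative to each array's 75th percentile were computed over 43803 non-control spots of 45220. Spots flagged as outliers were dropped where another spot of the probe remained. Probes stayed in when 3 or more arrays of 1 group were well above background (29101 probes), and the probe with the highest mean stood for its gene. One limma 3.58.1 fit (R 4.3.3) of 4 group means to 14 arrays, with 10 residual degrees of freedom, gave 5 comparisons, with Benjamini-Hochberg adjustment over the 18309 genes of a comparison. The script was tested on simulated data. The number of arrays limits the precision.

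The members, gene lists and naming rule were chosen with earlier results of these data known. The text names all members, up to 4 called genes of a list with the largest wild-type stress response, and the 3 genes with a symbol nearest SnRK2.6 and SnRK2.7. Slide and scan day come from the file headers: slides 1 and 2 were scanned on day 1 and slides 3, 4 and 5 on day 2. Wild-type control replicates 2 and 3 were on slide 1, control replicate 4 was with stress replicate 2 on slide 2, and stress replicates 3 and 4 were on slide 3. A blocked 35S:YFP-AFL1 response is therefore chained through slides 2, 4 and 5. The alternatives tried were the background correction, normalization, filter on dim probes, probe rule, slide, scan day, replicate block, value table and leaving out arrays.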

Additional observations from a re-analysis of the deposited data

How the results depend on the processing

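No SnRK2 change that was called in the main values turned its direction under any alternative. Some that were called only under an alternative had the other sign elsewhere. At low water potential the genotype difference was -1.65 for SnRK2.8 and -1.02 for SnRK2.9 without wild-type stress replicate 1, and 0.11 and 0.16 with the slide as a block. The difference of the responses of SnRK2.8 was likewise -1.50 and 0.34, and SnRK2.3 in wild type changed by -0.87 with the slide as a block and by 0.14 within scan day 2. When arrays were left out by replicate, the count of SnRK2 genes called ranged from 7 to 9 for the wild-type stress response. For that of 35S:YFP-AFL1 it ranged from 7 to 8. Over the other alternatives the counts ranged from 6 to 8 and from 5 to 9. These include fits within 1 scan day, which drop the arrays of the other day. Leaving out arrays gave 0 to 1 in the control genotype difference, 0 to 4 at low water potential and 0 to 2 in the difference of the responses. The upper ends came without wild-type stress replicate 1 (4 and 2) or without wild-type replicate 1 in both treatments (1, 4 and 2), a setting chosen after seeing the data. Background correction by normexp gave 1 call at low water potential, SnRK2.7 (0.76, adjusted p = 0.0325). It was run on the median signals, chosen after seeing the data, because the planned mean signal is not a column of these files, and that alternative was not run. SnRK2.5 has no value where a probe had to be well above background on all 14 arrays. The counts over all genes moved more. The genotype difference at low water potential held 397 genes, 605 with normexp, 237 with no filter, 187 with probes above background on all arrays, 199 with the replicate block, 62 and 47 with the slide as a fixed and a random block, 252 with scan day as a block, and 1 both within scan day 2 and with only the groups compared. Leaving out arrays took it from 12 to 4148, that in control from 2 to 1399 (4 in the main values, 34 with the slide as a fixed block, 18 within scan day 2) and the difference of the responses from 0 to 1173 (20 with the slide as a fixed block). The stress response held 11736 genes in wild type (7683 within scan day 2) and 11592 in 35S:YFP-AFL1 (6565 with the slide as a fixed block). Median centring gave 6993 higher and 5035 lower genes in 35S:YFP-AFL1, beside 5502 and 6090. Arrays with the same replicate number deviated together at correlations from -0.12 to 0.40. Arrays with different numbers were not compared in this way, so these values cannot decide whether the numbers pair the samples. The replicate block left the SnRK2 counts at 7, 7, 0, 0 and 0. The causes were not tested.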

Other observations

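The sister families of SnRK2 were measured on the same arrays. SnRK3 kinases, the CIPK proteins that bind calcineurin B-like calcium sensors, number 26, of which 24 were tested. In wild type 17 rose and 4 fell at low water potential, with a median log2 change of 1.05, and in 35S:YFP-AFL1 16 rose and 4 fell, with a median of 1.53. Over all genes tested 30.7% rose and 33.4% fell in wild type, and 30.1% rose and 33.3% fell in 35S:YFP-AFL1. CIPK5 rose by 4.12 ± 0.23 (adjusted p = 3.96e-09), CIPK25 by 4.02 ± 0.41 (adjusted p = 1.55e-06) and CIPK19 by 2.46 ± 0.27 (adjusted p = 3.38e-06) in wild type, while CIPK20 fell by 3.06 ± 0.36 (adjusted p = 6.12e-06). CIPK20 was well above background on 1 of 4 stressed and CIPK25 on 3 of 4 control arrays of wild type. CIPK24 (SOS2), the kinase of the salt overly sensitive pathway, was named after its value was seen and rose by 0.54 ± 0.18 in wild type (adjusted p = 0.0176).

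Of the catalytic subunits of SnRK1, the energy-sensing kinase, KIN10 rose in wild type (0.76 ± 0.12, adjusted p = 6.25e-05) and in 35S:YFP-AFL1 (0.97 ± 0.13, adjusted p = 2.65e-05). KIN11 changed by -0.03 (adjusted p = 0.897) and 0.05 (adjusted p = 0.843).

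In wild type 30.7% of all genes tested rose and 33.4% fell at low water potential. Of the root markers 5 of 9 were tested, and 0 rose and 3 fell in wild type (median -0.80). Of the shoot markers 6 of 7 were tested, and 1 rose and 5 fell (median -1.02). Their summed levels at low water potential were 1.41 to 1.95 and 112 to 210 times the 75th percentile in wild type, and their part in the SnRK2 values was not tested.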
